A study of Mus musculus with 9 samples.

Results

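The genes described here were Nrxn2 and Nrxn3, Nlgn1, Nlgn2 and Nlgn3, and Cadm1, Cadm2, Cadm3 and Cadm4, which are 9 of the 55704 genes in the expression table of cultured mouse neural stem cells (NSCs). They were found by their Ensembl identifiers and were selected on their levels in these same 9 libraries, so every level and difference given for them is a description without a test. All 9 had a mean of at least 0.1 FPKM (fragments scaled to the length of the gene and the depth of the library), the limit for entering the fit, which 20207 genes passed.

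NSCs came from the subventricular zone of adult C57BL/6 mice of 8 to 9 weeks, with 2 females and 2 males used in one isolation, and had gone through at least 3 passages. All groups were plated on poly-L-ornithine and laminin in medium with bFGF and EGF at 20 ng/ml each. The bFGF/EGF-treated NSCs were labelled as day 0. The bFGF/BMP4-treated NSCs were switched 16 to 18 h after plating to bFGF and BMP4 at 20 ng/ml each, and the BMP4-treated NSCs to 20 ng/ml BMP4 alone, both for 6 days. Each group had 3 libraries. The labels do not say whether the 3 came from separate isolations, so the spread between them may be technical, and the treatment cannot be told apart from the 6 days in culture in either comparison with bFGF/EGF-treated NSCs.

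Neurexins are cell surface proteins that are best known from presynaptic terminals, where they bind across the cleft to neuroligins on the receiving cell. Nlgn1 is known mainly from excitatory synapses, Nlgn2 from inhibitory ones and Nlgn3 from both. The Cadm proteins, also called SynCAMs, are immunoglobulin-type adhesion molecules that bind one another between cells and sit at synapses, on axons and on myelinating glia. Neurexins, neuroligins and Cadm proteins are also made by astrocytes and by cells of the oligodendrocyte lineage. Each neurexin gene gives long alpha and short beta forms from separate promoters and many splice forms, which a single FPKM per gene adds together.

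Promoter sequences were taken from the RefSeq promoter table of GRCm38.p6, which had windows for 6 of the 9 genes, and were placed on GRCm39, the build of the deposited values, by an exact match that was found 1 time for each window printed. Each window runs from 250 bases before the start of transcription to 50 bases after it. The 3 shown belong to the Cadm genes whose levels took 3 different courses over the groups. Capitals mark CACGTG, an E-box, and nothing else.
Cadm2 (chr16:67417747-67418046, minus strand): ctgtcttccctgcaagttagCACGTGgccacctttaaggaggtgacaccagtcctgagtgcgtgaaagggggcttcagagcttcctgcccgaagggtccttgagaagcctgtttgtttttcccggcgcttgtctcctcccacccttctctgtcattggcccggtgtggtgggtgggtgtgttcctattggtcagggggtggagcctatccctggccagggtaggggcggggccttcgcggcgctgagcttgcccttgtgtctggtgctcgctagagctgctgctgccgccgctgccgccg
Cadm3 (chr1:173195212-173195511, minus strand): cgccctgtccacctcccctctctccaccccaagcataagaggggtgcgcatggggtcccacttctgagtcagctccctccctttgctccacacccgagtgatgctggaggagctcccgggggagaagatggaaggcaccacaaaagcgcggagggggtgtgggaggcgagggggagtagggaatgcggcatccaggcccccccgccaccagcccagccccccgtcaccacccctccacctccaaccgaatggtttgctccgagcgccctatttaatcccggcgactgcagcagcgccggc
Cadm4 (chr7:24181198-24181497, plus strand): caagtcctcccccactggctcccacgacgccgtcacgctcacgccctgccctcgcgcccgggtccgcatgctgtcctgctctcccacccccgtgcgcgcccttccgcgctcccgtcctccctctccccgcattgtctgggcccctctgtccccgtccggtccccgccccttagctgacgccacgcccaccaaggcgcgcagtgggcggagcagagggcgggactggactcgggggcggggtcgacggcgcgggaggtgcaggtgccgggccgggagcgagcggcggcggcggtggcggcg

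The Cadm4 window was the richest of these in CG pairs. It held 40, more than 96.1% of the 32851 windows in the table, against 17 for Cadm3, 15 for Cadm2 and a median of 7. Searched on both strands, CACGTG was present in 7.15% of all windows and in the Cadm2 window alone among the 9 windows of the chosen genes. GGCGCC, a core bound by BMP-activated SMAD proteins, was in 11.9% of all windows, and CCGGAA, the core read by ETS factors, in 14.9%. TATAAA was in 13.6%. None of these last 3 was found in the 9 windows, and the table held none for Nrxn2, Cadm1 or Nlgn3.

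Libraries had 15892854 to 17419822 fragments on genes, as rebuilt from the FPKM values, and log2 values correlated at r = 0.950 to 0.964 within groups against 0.810 to 0.915 between groups. The 8 BMP/SMAD target genes fixed as a check of the labels were all higher than in bFGF/EGF-treated NSCs in both BMP4-containing media. The 7 FGF/ERK targets were all lower in BMP4-treated NSCs, and 1 of 7 was lower in bFGF/BMP4-treated NSCs. Of the NSC markers, Sox2 averaged 167 ± 36.2, 137 ± 11.7 and 137 ± 13.4 FPKM (SD, n = 3) with bFGF/EGF, with bFGF/BMP4 and with BMP4, whereas Nes, the intermediate filament gene of NSCs, averaged 151, 3.55 and 15.8 FPKM. Levels of the other marker lists also differed between groups. Summed over 8 astrocyte markers, the level was 261 to 310 FPKM in bFGF/EGF-treated, 825 to 886 in bFGF/BMP4-treated and 3799 to 4696 in BMP4-treated NSCs, with Gfap (2566 ± 435 FPKM) as the main part of the last. Of these 8, 6 were higher and 1 lower in each comparison with bFGF/EGF, and 5 were higher and 1 lower with BMP4 than with bFGF/BMP4. Aldh1l1 was the one below its bFGF/EGF level in both media (135, 24.2 and 58.1 FPKM), and Slc1a2 was the one that fell from bFGF/BMP4 to BMP4 (12.6, 175 and 65.5 FPKM). Over 11 neuron markers it was 79.6 to 96.0, 49.0 to 55.1 and 145 to 217 FPKM, with Tubb3 as the main part of the last. Over 6 markers of oligodendrocyte precursor cells (OPCs) it was 1563 to 2264, 1313 to 1796 and 216 to 423 FPKM, nearly all of it Olig1 and Olig2. The 6 NSC markers summed to 1591 to 1700, 565 to 639 and 1313 to 1777 FPKM, with Vim and Fabp7 as the main part. Sums were lower for 4 ependymal markers (6.71 to 11.3, 10.7 to 11.4 and 55.1 to 64.7 FPKM), most of it Foxj1. They were also lower for 6 microglia markers (0.411 to 0.876, 0.412 to 0.540 and 1.49 to 1.74) and 5 endothelial and mural markers (0.150 to 0.276, 1.66 to 2.53 and 3.75 to 5.41). Slc17a6 had at most 1 fragment in any library, and C1qa, Cldn5 and the ependymal marker Tmem212 had 0 in all 9. In such bulk RNA, fewer cells of a type and less RNA per cell cannot be told apart.

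**Figure D1:**
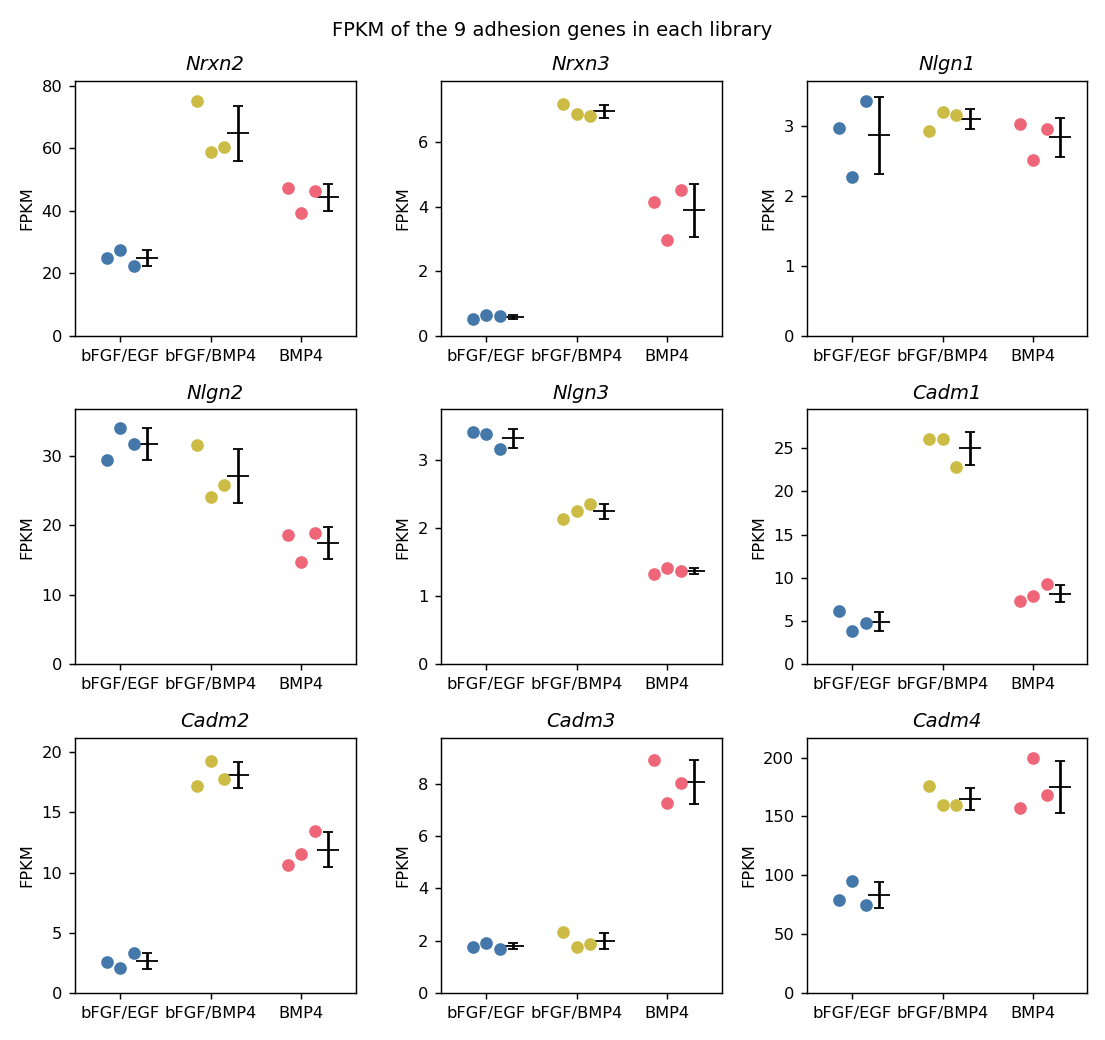
FPKM (linear axes from 0) of the 9 genes in each of the 9 libraries, 1 panel per gene and 1 point per library, with the group mean and its SD as a black bar. Nrxn2, Nrxn3, Cadm1 and Cadm2 were highest in the 3 bFGF/BMP4-treated libraries, Cadm3 in the 3 BMP4-treated ones, and Nlgn2 and Nlgn3 had their lowest values in the BMP4-treated ones.

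In bFGF/EGF-treated NSCs, FPKM ran from Cadm4 (83.1) through Nlgn2 (31.7), Nrxn2 (25.0), Cadm1 (4.95), Nlgn3 (3.31), Nlgn1 (2.87), Cadm2 (2.65) and Cadm3 (1.80) to Nrxn3 (0.590). The ranges of Nlgn3, Nlgn1 and Cadm2 all overlapped one another. In bFGF/BMP4-treated NSCs the order was Cadm4 (165), Nrxn2 (64.8), Nlgn2 (27.2), Cadm1 (25.0), Cadm2 (18.1), Nrxn3 (6.95), Nlgn1 (3.10), Nlgn3 (2.24) and Cadm3 (1.99). Here Nlgn2 overlapped Cadm1, and Nlgn3 overlapped Cadm3. In BMP4-treated NSCs it was Cadm4 (175), Nrxn2 (44.4), Nlgn2 (17.4), Cadm2 (11.9), Cadm1 (8.19), Cadm3 (8.08), Nrxn3 (3.89), Nlgn1 (2.84) and Nlgn3 (1.37), with overlap of Cadm1 with Cadm3 and of Nrxn3 with Nlgn1. Cadm4 was first in all 3 groups, whereas Cadm3 was next to last with bFGF/EGF, last with bFGF/BMP4 and sixth with BMP4.

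Both chosen neurexins were higher in the 2 media with BMP4 than with bFGF/EGF, and highest with bFGF/BMP4. Nrxn3 (ENSMUSG00000066392, chr12:88689646-90301709, plus strand, GRCm39) had 0.520, 0.638 and 0.611 FPKM in the bFGF/EGF-treated libraries, 7.18, 6.86 and 6.80 in the bFGF/BMP4-treated ones and 4.15, 2.98 and 4.53 in the BMP4-treated ones. The 3 groups did not overlap, and the bFGF/EGF values rested on 112 to 137 fragments. The ratio of means to bFGF/EGF-treated NSCs was 11.8 with bFGF/BMP4 and 6.59 with BMP4, and the differences on the log2(FPKM + 0.1) scale were 3.36 and 2.51 (SE 0.182). From bFGF/BMP4 to BMP4 the log2 difference was -0.84.

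Nrxn2 (ENSMUSG00000033768, chr19:6468761-6594199, plus strand) had 25.1, 27.6 and 22.4 FPKM with bFGF/EGF, 75.1, 59.0 and 60.4 with bFGF/BMP4, and 47.4, 39.4 and 46.3 with BMP4. These groups did not overlap either. The log2 difference from bFGF/EGF-treated NSCs was 1.37 with bFGF/BMP4 and 0.83 with BMP4 (SE 0.136), so the step was smaller than that of Nrxn3, although the FPKM of Nrxn2 was far above that of Nrxn3 in every group. Of its annotated exon bases, 4.94% lie opposite Slc22a12 and 1.5% opposite the lncRNA Gm14964, whose means were 0.416, 2.08 and 2.38 FPKM and 1.43, 4.29 and 5.48 FPKM in the same order of groups, and whether reads were counted by strand is not given in the sources used here. Their part in the Nrxn2 values was not tested.

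The neuroligins did not share this course. Nlgn2 (ENSMUSG00000051790, chr11:69713948-69728613, minus strand), the most abundant neuroligin per length, had 29.4, 34.0 and 31.7 FPKM with bFGF/EGF, 31.5, 24.1 and 25.8 with bFGF/BMP4, and 18.6, 14.8 and 18.9 with BMP4. The first 2 groups overlapped, and every BMP4-treated library lay below both. The log2 difference was -0.23 with bFGF/BMP4 and -0.87 with BMP4 against bFGF/EGF (SE 0.140), and -0.64 between the 2 media with BMP4.

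Nlgn3 (ENSMUSG00000031302, chrX:100342750-100369570, plus strand) had 3.41, 3.38 and 3.15 FPKM with bFGF/EGF, 2.13, 2.24 and 2.35 with bFGF/BMP4, and 1.33, 1.41 and 1.37 with BMP4. It stepped down in 2 stages with no overlap and had an SD of 3.04% to 4.72% of the mean in each group, on 200 to 537 fragments a library. The log2 differences from bFGF/EGF-treated NSCs were -0.54 and -1.21 (SE 0.143). Nlgn3 is known for its expression in OPCs, and 5 of the 6 OPC markers were lower with bFGF/BMP4 and 6 of 6 with BMP4 against bFGF/EGF (2 and 3 with a pseudocount of 1). Of all fitted genes, 14.1% and 15.4% were lower. Olig1, the OPC marker of highest FPKM, averaged 1352, 1254 and 275 FPKM, and its first 2 groups overlapped. Olig2 averaged 565, 246 and 31.7 FPKM, Cspg4 13.2, 3.77 and 3.27, and Sox10 had 2 to 11 fragments with bFGF/EGF and 0 in the other 6 libraries. Their part in the Nlgn3 values was not tested. The read-through transcript Gm21986 covers 41.1% of the Nlgn3 exon bases on the same strand and had at most 0.122 FPKM in any library. How reads on the shared bases were counted is not given in the sources used here, and their effect on the Nlgn3 values was not tested.

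Nlgn1 (ENSMUSG00000063887, chr3:25480379-26386609, minus strand) had 2.97, 2.28 and 3.36 FPKM with bFGF/EGF, 2.94, 3.20 and 3.16 with bFGF/BMP4, and 3.04, 2.52 and 2.96 with BMP4. All 3 groups overlapped. With an SE of 0.172 on the log2 scale, the 3 differences lay between -0.12 and 0.12.

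**Figure D2:**
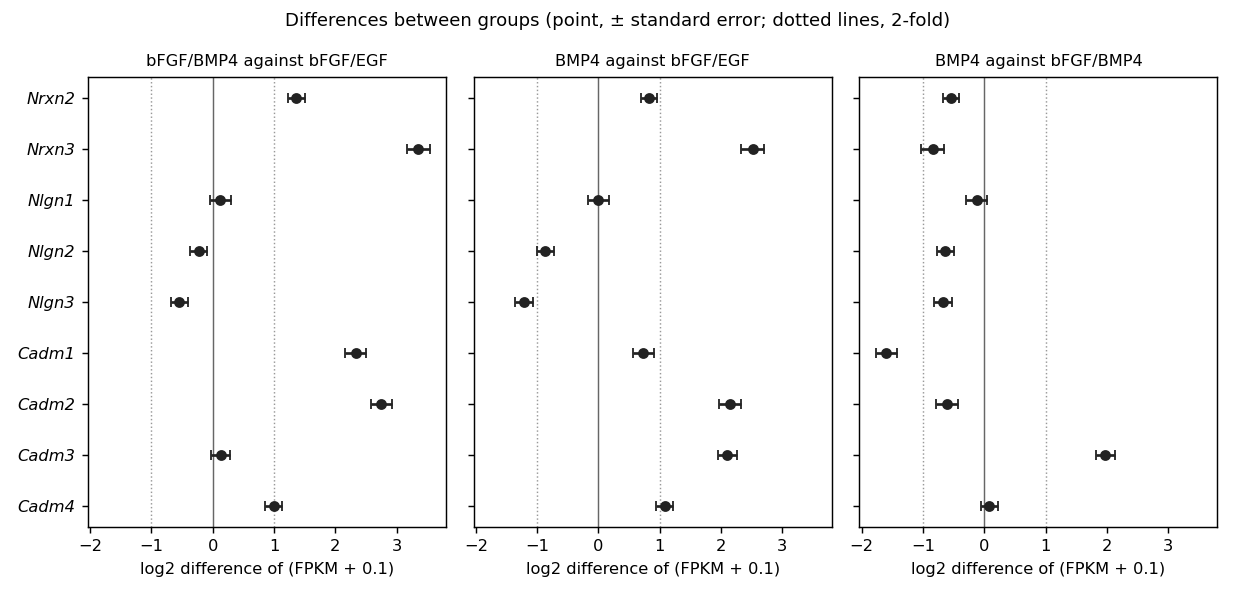
Differences of log2(FPKM + 0.1) between groups for the 9 genes, 1 panel per comparison, as points with the standard error from the limma fit, with dotted lines at a 2-fold difference. Nrxn2 and Nrxn3 lie to the right of 0 in both comparisons with bFGF/EGF, Nlgn2 and Nlgn3 to the left in all 3 panels, and Cadm3 alone lies to the right of the 2-fold line in the last panel.

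The 4 Cadm genes took different courses. Cadm1 (ENSMUSG00000032076, chr9:47441471-47773576, plus strand) was a gene of the bFGF/BMP4-treated cells, with 26.1, 26.1 and 22.8 FPKM there against 6.15, 3.88 and 4.83 with bFGF/EGF and 7.33, 7.94 and 9.30 with BMP4. The log2 difference was 2.33 with bFGF/BMP4 and 0.73 with BMP4 against bFGF/EGF, and -1.60 from bFGF/BMP4 to BMP4 (SE 0.170). Groups did not overlap, although the gap between the highest bFGF/EGF value and the lowest BMP4 value was narrow.

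Cadm2 (ENSMUSG00000064115, chr16:66451872-67417816, minus strand) had 2.57, 2.03 and 3.35 FPKM with bFGF/EGF, 17.2, 19.3 and 17.8 with bFGF/BMP4, and 10.6, 11.6 and 13.5 with BMP4. Unlike Cadm1 it kept most of its level without bFGF, with log2 differences from bFGF/EGF-treated NSCs of 2.75 and 2.15 (SE 0.175). Its ratio of BMP4 to bFGF/BMP4 means was 0.658, against 0.328 for Cadm1.

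Cadm3 (ENSMUSG00000005338, chr1:173160825-173195452, minus strand) was high with BMP4 alone. It had 1.78, 1.93 and 1.69 FPKM with bFGF/EGF, 2.34, 1.77 and 1.86 with bFGF/BMP4, and 8.94, 7.27 and 8.03 with BMP4. The first 2 groups overlapped, and the BMP4 mean was 4.49 and 4.06 times theirs (log2 differences 2.10 and 1.97, SE 0.158). Cadm3 is known mainly from neurons. Of the neuron markers tested, 4 of 8 were higher and 2 of 8 lower in BMP4- than in bFGF/BMP4-treated NSCs, where 8.41% and 5.14% of all fitted genes were. Tubb3 rose in that comparison (17.0 to 145 FPKM, log2 difference 3.06, adjusted p = 1.75e-05) and Rbfox3, a marker of mature neurons, fell (1.57 to 0.522 FPKM, -1.47, adjusted p = 0.0097). With a pseudocount of 1 these counts were 3 and 0, with -0.76 for Rbfox3. Dcx, 1 of the 4 higher markers, had 1.99, 0.342 and 0.384 FPKM in the BMP4-treated libraries. Its call also ended with no filter, on the TPM scale, with only the 2 groups compared and without BMP4 replicate 1. It ended as well when any single bFGF/EGF or bFGF/BMP4 replicate was left out (limma adjusted p = 0.057 to 0.114). The ependymal marker Foxj1 also rose (10.0 to 55.1 FPKM, adjusted p = 1.6e-05). Their part in the Cadm3 values was not tested. Cadm3 shares 4.85% of its exon bases with Ackr1 on the same strand, and Ackr1 averaged 0.322, 0.308 and 2.77 FPKM. It is not given how reads from these shared bases were counted, and their effect on the Cadm3 values was not tested.

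Cadm4 (ENSMUSG00000054793, chr7:24181425-24203964, plus strand), known for its part in myelinating glia, had the highest FPKM of the 9 genes, with 78.7, 95.4 and 75.1 with bFGF/EGF, 176, 159 and 160.0 with bFGF/BMP4, and 158, 199.9 and 168 with BMP4. Both groups with BMP4 lay above bFGF/EGF and overlapped each other. The log2 differences from bFGF/EGF-treated NSCs were 0.996 and 1.08 (SE 0.140), which lie on either side of the 2-fold limit, and the difference between them was 0.08. The 1.08 was itself under that limit on the TPM scale (0.99), with limma-voom (0.98) and without BMP4 replicate 2 (0.98).

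Counted at that limit together with a limma adjusted p of at most 0.05, 4 of the 9 genes were higher with bFGF/BMP4 than with bFGF/EGF (Nrxn2, Nrxn3, Cadm1 and Cadm2), where 16.5% of all fitted genes were, and 0 of 9 were lower, where 14.1% of all genes were. With BMP4 against bFGF/EGF 4 were higher (Nrxn3, Cadm2, Cadm3 and Cadm4) against 21.3% of all genes, and 1 was lower (Nlgn3) against 15.4%. The Cadm4 call ended under the 3 settings given above, and that of Nlgn3 with a pseudocount of 1 (-0.86). Between the 2 media with BMP4, Cadm3 was higher without bFGF and Cadm1 was lower, against 8.41% and 5.14% of all genes. These counts follow from how the genes were chosen.

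**Figure D3:**
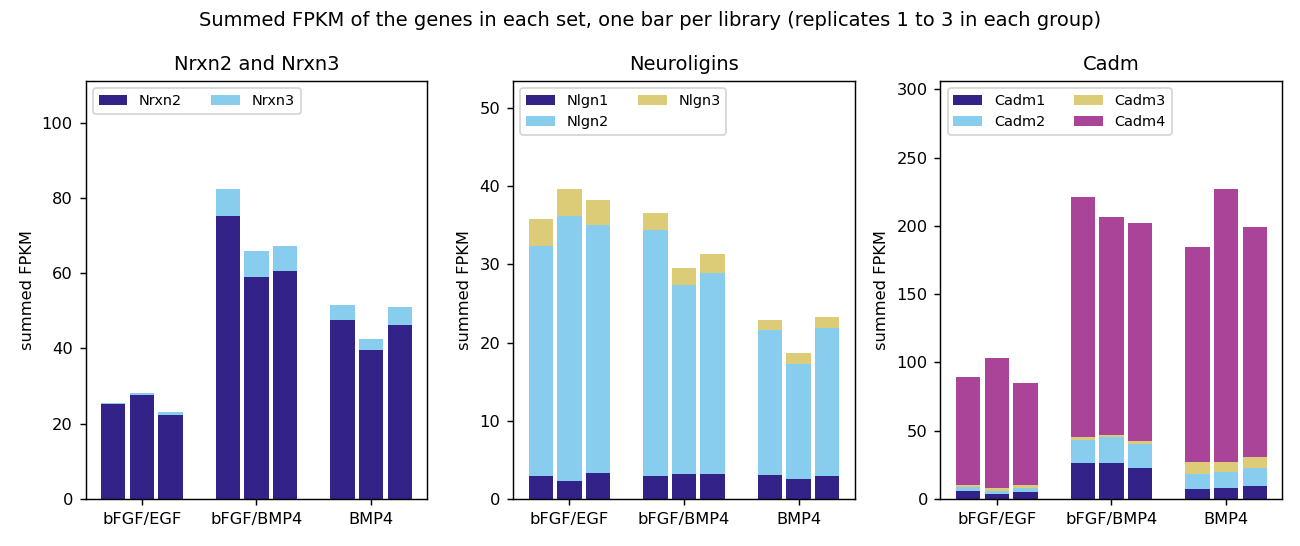
Summed FPKM of Nrxn2 and Nrxn3, the neuroligins and the Cadm genes (linear axes from 0), 1 stacked bar per library in replicate order within each group, coloured by gene. Sums of Nrxn2 and Nrxn3 were 23.0 to 28.2 with bFGF/EGF and 65.9 to 82.2 with bFGF/BMP4, neuroligin sums were lowest with BMP4, and Cadm4 made up most of every Cadm bar.

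Summed together, Nrxn2 and Nrxn3 reached 25.6 ± 2.62 FPKM with bFGF/EGF, 71.8 ± 9.09 with bFGF/BMP4 and 48.3 ± 5.10 with BMP4 (SD, n = 3). The neuroligins summed to 37.9 ± 1.93, 32.5 ± 3.67 and 21.6 ± 2.54. The ratio of the first sum to the second was 0.676 ± 0.0651 with bFGF/EGF, 2.21 ± 0.0530 with bFGF/BMP4 and 2.23 ± 0.0421 with BMP4, so it was nearly the same in both media with BMP4.

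The makeup of the sums also differed between groups. Nrxn3 made up 2.32% ± 0.320 of the summed Nrxn2 and Nrxn3 FPKM with bFGF/EGF and 9.75% ± 0.898 and 7.99% ± 0.945 with bFGF/BMP4 and BMP4. Nlgn2 stayed at 83.6% ± 1.86, 83.4% ± 2.43 and 80.4% ± 1.27 of the neuroligins, and the share of Nlgn1 was 7.61% ± 1.63 with bFGF/EGF and 13.2% ± 0.375 with BMP4, although its FPKM overlapped. In the Cadm family, Cadm4 made up 89.7% ± 2.38, 78.5% ± 1.20 and 86.0% ± 1.91. Cadm1 made up 11.9% ± 0.691 of it with bFGF/BMP4 and 4.05% ± 0.588 with BMP4, and Cadm3 0.945% ± 0.103 and 4.03% ± 0.821.

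Genes known to bind, modify or anchor these proteins were set out in 7 lists by role. Of their 108 genes, 96 passed the limit on low values and were tested in the same fit. With bFGF/BMP4 against bFGF/EGF 19 were higher and 17 lower, with BMP4 against bFGF/EGF 16 and 26, and with BMP4 against bFGF/BMP4 9 and 18. As shares these were 19.8% and 17.7%, 16.7% and 27.1%, and 9.38% and 18.8%, to be set beside the shares of all genes above. Their median log2 differences were 0.08, -0.05 and -0.25, and those of all fitted genes 0.06, 0.10 and 0. Genes outside the rule for named genes that are given below because a count is small or a call ended were named after their values were seen.

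Of the extracellular partners of neurexins, 20 of 25 were tested. With BMP4 against bFGF/EGF 11 were lower and 3 higher, where 15.4% and 21.3% of all fitted genes were. The median log2 difference of the 20 was -1.28. Of the 11, Lrrtm1, Cbln1, Cbln4, Tafa1 and Tafa2 were no longer called with a pseudocount of 1. Lrrtm1, Tafa1 and Cbln4 also ended without some of the single replicates, and Cbln4 with no filter and with only the 2 groups compared. The neurexophilins, small secreted ligands of alpha-neurexins, went in opposite directions. Nxph1 had 20.3 ± 1.49, 14.1 ± 2.52 and 1.59 ± 0.447 FPKM with bFGF/EGF, with bFGF/BMP4 and with BMP4 and fell with BMP4 against both (log2 differences -3.63, adjusted p = 5.7e-07, and -3.10, adjusted p = 9.3e-06). Nxph4 had 0 to 2 fragments with bFGF/EGF, 0.791 ± 0.0413 FPKM with bFGF/BMP4 and 8.13 ± 2.40 with BMP4, and it was higher with BMP4 than with bFGF/BMP4 (log2 difference 3.16, adjusted p = 8.0e-05).

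Clstn2, a calsyntenin and postsynaptic partner, rose with bFGF/BMP4 (0.479 ± 0.0505 to 8.00 ± 2.04 FPKM, log2 difference 3.78, adjusted p = 9.3e-07) and stood at 2.50 ± 0.432 FPKM with BMP4. Igsf21, a neurexin ligand of inhibitory synapses, fell with bFGF/BMP4 (20.1 ± 3.90 to 3.10 ± 0.805, -2.67, adjusted p = 5.0e-06). The leucine-rich repeat partners Lrrtm2 and Lrrtm3 were lower in each of the 3 comparisons, Lrrtm3 with 4.57, 1.45 and 0.448 FPKM. With a pseudocount of 1 both were under the 2-fold limit from bFGF/BMP4 to BMP4 (-0.53 for Lrrtm2 and -0.76 for Lrrtm3), and Lrrtm2 also with bFGF/BMP4 against bFGF/EGF (-0.73), where its adjusted p was 0.0515 to 0.0567 without bFGF/EGF replicate 1, bFGF/EGF replicate 3 or bFGF/BMP4 replicate 3. Lrrtm2 lies in part opposite Ctnna1, whose mean was 53.7 FPKM against a highest group mean of 1.96 for Lrrtm2. The other genes higher with bFGF/BMP4 against bFGF/EGF were Nxph4, Adgrl1, Clstn3 and Dag1, of which Nxph4 (0.81) and Clstn3 (0.53) were under the 2-fold limit with a pseudocount of 1. With BMP4, Clstn2, Nxph4 and C1ql3 were higher than with bFGF/EGF, and Nxph3, Nxph4 and C1ql3 higher than with bFGF/BMP4, Nxph3 not with a pseudocount of 1 (0.40). C1ql3 has 38.5% of its exon bases opposite Pter, whose mean was 2.80 FPKM, against 0.844, 0.374 and 3.86 FPKM for C1ql3 itself.

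Each of the 4 neuroligin modulators moved in at least 1 comparison. Sparcl1 (hevin), a secreted astrocyte protein known to act at synapses, had 39.4 ± 4.41 FPKM with bFGF/EGF, 1359 ± 184 with bFGF/BMP4 and 1092 ± 51.8 with BMP4. It rose in both comparisons with bFGF/EGF (log2 differences 5.10 and 4.79, adjusted p = 2.5e-08 and 2.2e-08). Thbs1, an astrocyte thrombospondin that binds Nlgn1, rose from bFGF/BMP4 to BMP4 (3.39 ± 0.992 to 16.5 ± 3.08 FPKM, 2.28, adjusted p = 6.4e-04).

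The 2 MDGA proteins cover the neurexin-binding face of neuroligins, and their genes moved apart. Mdga1 was higher in each of the 3 comparisons, with 1.21, 3.60 and 7.72 FPKM. From bFGF/BMP4 to BMP4 its log2 difference was 1.07, and it was under the 2-fold limit with a pseudocount of 1 (0.91), on the TPM scale (0.998) and without bFGF/BMP4 replicate 1, BMP4 replicate 1 or BMP4 replicate 3 (0.95 to 0.98). Mdga2 had 3.40 ± 0.653, 5.60 ± 0.828 and 1.41 ± 0.340 FPKM and fell with BMP4 against bFGF/EGF (-1.22, adjusted p = 7.8e-04) and against bFGF/BMP4 (-1.93, adjusted p = 1.55e-04). With a pseudocount of 1 the first of these Mdga2 differences was -0.87 and under the 2-fold limit.

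Of the Cadm partners, 9 of 12 were tested. The scaffold gene Mpp3 was, like Cadm1, highest with bFGF/BMP4, with 1.09 ± 0.0643, 11.3 ± 2.27 and 0.912 ± 0.0760 FPKM. It rose with bFGF/BMP4 against bFGF/EGF (3.24, adjusted p = 7.3e-07) and fell from bFGF/BMP4 to BMP4 (-3.48, adjusted p = 3.0e-06). Epb41l1, which codes for a protein 4.1 of the kind that binds Cadm tails, was the other one to pass in these 2 comparisons, with 3.99, 14.8 and 7.25 FPKM. Its fall from bFGF/BMP4 to BMP4 was -1.03 and came under the 2-fold limit with a pseudocount of 1 (-0.94) and without bFGF/BMP4 replicate 3 (-0.96) or BMP4 replicate 2 (-0.89). None of the 9 passed with BMP4 against bFGF/EGF.

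Of the scaffolds that hold neurexins and neuroligins in the cell, 7, 8 and 4 of 24 were past the threshold in either direction in the 3 comparisons. These are 29.2%, 33.3% and 16.7%, near the 30.6%, 36.6% and 13.5% of all fitted genes. For the extracellular partners the counts were 12, 14 and 10 of 20, and the difference between the lists was not tested. Cask, the kinase-like scaffold that binds neurexin and Cadm tails, had 17.5 ± 1.38, 25.1 ± 4.91 and 8.67 ± 0.639 FPKM and fell from bFGF/BMP4 to BMP4 (-1.50, adjusted p = 9.6e-05). Magi3 rose with BMP4 against both (2.24 and 1.30, adjusted p = 5.05e-06 and 7.1e-04). Dlgap1 rose with bFGF/BMP4 (0.939 ± 0.146 to 5.84 ± 0.390 FPKM, 2.52, adjusted p = 1.8e-06), whereas Dlgap3 fell with BMP4 (32.5 ± 5.92 to 8.54 ± 0.743, -1.90, adjusted p = 3.3e-06). Apba2, a Mint protein gene, fell with bFGF/BMP4 (42.7 ± 3.07 to 16.6 ± 2.08, -1.36, adjusted p = 5.6e-05).

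Among 21 tested organizers of synapses outside these families, 4 were higher and 3 lower with bFGF/BMP4 against bFGF/EGF. With BMP4 against bFGF/EGF 5 and 7 were, and 3 and 3 between the 2 media with BMP4. Shares of all genes were 16.5% and 14.1%, 21.3% and 15.4%, and 8.41% and 5.14%. A pseudocount of 1 ended the calls of Lrrc4c, Il1rapl1 and Slitrk1 in the first comparison. In the second it ended those of Slitrk1, Slitrk2, Slitrk3, Ntng1, Flrt3 and Il1rapl1, and in the third those of Slitrk1 and Tenm2. Tenm3 ended there on the TPM scale, and some of these calls also ended under other settings. The receptor phosphatase gene Ptprd rose with bFGF/BMP4 and BMP4 (0.731 ± 0.0892 to 10.6 ± 0.682 and 7.06 ± 1.53 FPKM, 3.69 and 3.09, adjusted p = 3.0e-07 and 6.4e-07). Its ligand gene Il1rap fell in both (8.55 ± 1.19 to 1.37 ± 0.398 and 1.38 ± 0.235, -2.59 and -2.55, adjusted p = 1.5e-05 and 1.0e-05). Between the 2 media with BMP4, Ntng2 had the largest rise (4.78 ± 0.281 to 18.2 ± 2.81 FPKM, 1.90, adjusted p = 1.65e-05) and Ntrk3 the largest fall (7.64 ± 0.552 to 1.87 ± 0.631, -2.03, adjusted p = 2.0e-04).

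Of the 9 RNA-binding proteins known to set neurexin splicing, 4 were lower with bFGF/BMP4 and 3 with BMP4 against bFGF/EGF. Ptbp1 had 61.6 ± 10.3, 17.4 ± 3.20 and 31.3 ± 4.68 FPKM and fell with bFGF/BMP4 (-1.82, adjusted p = 2.7e-05). Khdrbs1 and Khdrbs3, the SAM68 and SLM2 proteins that act on a neurexin exon, were lower in both comparisons, Khdrbs3 with 76.3, 29.6 and 24.7 FPKM, and Nova2 was the fourth with bFGF/BMP4 (-1.07, under the 2-fold limit at -0.99 with quantile normalization and at -0.95 without bFGF/EGF replicate 2). Nova1 had 8.71 ± 1.12, 5.05 ± 0.511 and 2.20 ± 0.143 FPKM and fell with BMP4 against bFGF/EGF (-1.93, adjusted p = 2.6e-06) and against bFGF/BMP4 (-1.16, adjusted p = 3.0e-04), the latter at -0.91 and under the 2-fold limit with a pseudocount of 1. Khdrbs2 was higher with bFGF/BMP4 than in either other group, at 0.433 FPKM, but not with a pseudocount of 1 (0.45 and -0.43). Splice forms themselves were not measured by these values. Of 9 shedding proteases, Psen2 alone passed, and it rose in both comparisons with bFGF/EGF (1.64 ± 0.295 to 4.54 ± 0.828 and 6.74 ± 0.596 FPKM, 1.42 and 1.99, adjusted p = 1.3e-04 and 9.8e-06).

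**Figure D4:**
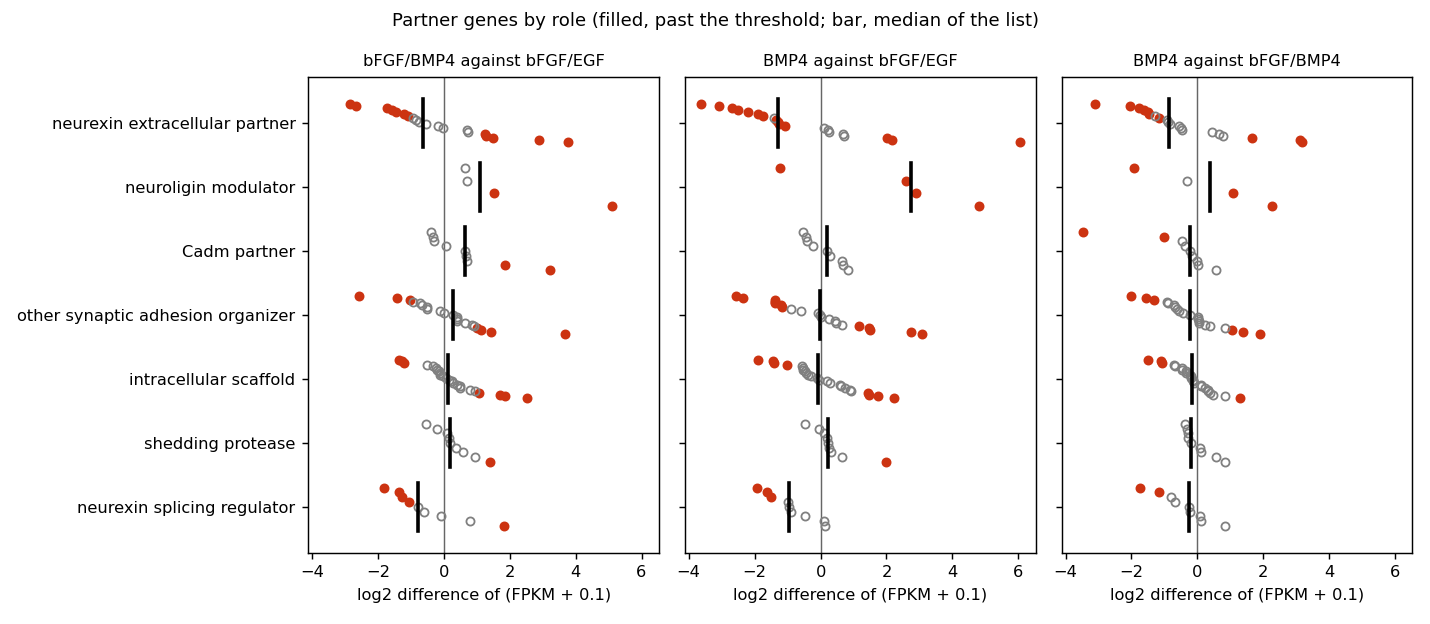
Differences of log2(FPKM + 0.1) for the 96 tested partner genes, 1 row per role list and 1 panel per comparison, with filled points for genes past the threshold (limma adjusted p of at most 0.05 and at least 2-fold) and a black bar at the median of each list. Extracellular partners of neurexins reach from -3.63 (Nxph1) to 6.04 (Nxph4, with 0 to 2 fragments in bFGF/EGF) in the middle panel, while shedding proteases hold 1 filled point in each of the first 2 panels and 0 in the last panel.

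Over the 9 libraries, which share the 3 groups and so form few independent levels, the genes with the pattern most like each were sought by Pearson's r of log2(FPKM + 0.1). For Nrxn3 they were the transcription factor gene Maf (r = 0.993; 1.13, 11.4 and 5.66 FPKM) and Dnajc18 (r = 0.993), and for Nrxn2 the glycogen phosphorylase gene Pygm (r = 0.990) and Cds2 (r = 0.989). Cadm2 ran with the cadherin gene Cdh19 (r = 0.997; 0.560, 12.7 and 5.34 FPKM) and Spire1 (r = 0.996), and Cadm1 with Ankrd10 (r = 0.994) and the glypican gene Gpc5 (r = 0.990; 0.785, 28.2 and 3.12 FPKM). For Cadm3 they were Als2cl (r = 0.992) and the complement gene C3 (r = 0.991), which averaged 59.3 ± 43.1 FPKM with BMP4 and under 0.01 in the other groups. Cadm4 ran with Marchf2 and Sat1 (both r = 0.993). Nlgn3 ran with 2 genes of secreted vascular ligands, Apln (r = 0.997; 142, 15.7 and 1.63 FPKM) and Angpt2 (r = 0.993). For Nlgn2 the nearest were Zfp251 and Rabl6 (r = 0.978 and 0.976), and for Nlgn1, whose groups overlapped, Dmxl2 and Sbno1 (r = 0.977 and 0.962), where r follows the spread of the libraries within groups.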

How the data were processed

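Total RNA of 9 NSC cultures was sequenced in pairs of reads. The authors cleaned reads with fastp 0.19.7 and aligned them with HISAT2 2.0.5 to mm39, and their processing notes also name featureCounts 1.5.0-p3. They deposited FPKM values per gene, and the annotation release and the use of strand are not given in the sources used here. Identifiers were matched to GENCODE vM39 on GRCm39 (54749 of 55414). Whole fragment numbers were rebuilt from the FPKM steps (within 0.01 fragments for all 30860 genes above 0) and served for depth and for one alternative. Values after ± are the SD between libraries.

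Genes with a mean of at least 0.1 FPKM over the 9 libraries were fitted with limma 3.58.1 (R 4.3.3, trend) on log2(FPKM + 0.1), all 3 groups in one fit, two-sided, with Benjamini-Hochberg adjustment over 20207 genes. A call required an adjusted p of at most 0.05 and a 2-fold difference, which the pseudocount understates for low genes. The steps were tested on simulated data. Python 3.11.15, pandas 2.3.3, numpy 2.4.6 and matplotlib 3.10.9 made the summaries.

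The 9 genes, the 7 role lists and the marker lists were chosen with earlier results of these data known. Named were the 9 genes, the largest rise and fall past the threshold in each list and comparison among genes with a mean of at least 1 FPKM, the markers, and, for each of the 9, the 2 protein-coding genes (mean of at least 5 FPKM) of highest r, apart from items not reported here. Alternatives changed the pseudocount, the filter, the scaling, the model, the fold limit and the libraries. Protein sequences were not used here.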

Additional observations from a re-analysis of the deposited data

How the results depend on the processing

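Of 486 log2 differences of the 9 genes recomputed under the alternatives, 476 moved by less than the SD between replicates and none of those past the threshold changed sign. The other 10 came from a pseudocount of 1 or from quantile normalization and belonged to Nrxn3, Cadm2, Cadm3 and Nlgn3. Nrxn3 with bFGF/BMP4 against bFGF/EGF ran from 2.32 (pseudocount 1) to 3.44 (limma-voom on rebuilt fragments), and Nlgn3 with BMP4 against bFGF/EGF from -1.40 (quantile normalization) to -0.86 (pseudocount 1). Cadm4 with bFGF/BMP4 against bFGF/EGF, next to the 2-fold limit, ran from 0.88 (limma-voom) to 1.11 (quantile normalization). Quantile normalization also moved the median of all genes with BMP4 against bFGF/EGF from 0.10 to -0.03.

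With a pseudocount of 1 the partner genes called lower were 11, 13 and 10 in place of 17, 26 and 18 in the comparisons of bFGF/BMP4 with bFGF/EGF, BMP4 with bFGF/EGF and BMP4 with bFGF/BMP4, and of the 9 genes 0 in place of 1 was lower with BMP4 against bFGF/EGF. Of the 20207 fitted genes, 1821, 2038 and 559 were lower with a pseudocount of 1, in the same order of comparisons. With no fold limit the partner genes called higher were 34, 26 and 15 in place of 19, 16 and 9, and of the 9 genes 1, 2 and 6 were lower in place of 0, 1 and 1. All fitted genes were not counted without a fold limit, so these last counts have no share to be set beside. The other 218 counts of partner genes and of the 9 genes stayed within 1.5 times. Same-numbered libraries deviated together at r of -0.084 to 0.125, over 0.1 in 1 of 9 pairs. With 3 libraries a group, these values cannot settle whether the numbers pair the samples. With the replicate number as a block the partner genes higher with BMP4 against bFGF/BMP4 were 8 in place of 9. The 9 genes rested on 112 to 16659 fragments a library, and groups of 3 libraries were not tested for outliers.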
